A study of Mus musculus with 8 samples.

Results

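The miR-99b and miR-125 group comprises 7 mature miRNAs: both arms of the miR-99b hairpin, both arms of the miR-125a hairpin, and miR-125b-5p with the 3p arms of its 2 hairpins, miR-125b-2-3p and miR-125b-1-3p. The members were chosen by name, 7 of the 1915 mature mouse miRNAs listed in the count table, and all 7 were among the 475 miRNAs abundant enough to be tested. Small RNA was sequenced from mouse embryonic stem cells in 8 libraries, 2 for each of 4 groups. All groups descend from E14, a pluripotent line of 129/Ola background, and were grown on gelatine-coated plates with 15% serum and LIF at 100 U/mL, a cytokine that keeps such cells undifferentiated. The induced AGO1 line (A and B) carried the Ago2 knockout and an inducible AGO1 transgene, was kept in puromycin at 2 µg/mL and received doxycycline at 1 µg/mL. The uninduced AGO1 line (A and B) was the same line in the same puromycin without doxycycline, so the controls of the induction lacked AGO2 as well. The Ago2 knockout group held knockout lines 1 and 2 (knockouts 1 and 2), and the wild type group held E14 A and B. In the count table a second header line gives the column headed E14 A the name of E14 B. The first header line was followed, and both names are wild type, so the groups do not depend on it but the letter of that library does. The labels derive the AGO1 line from knockout line 1, so both of its groups stand for a single line. They do not state whether A and B are separate cultures, so the p-values measure the spread between these libraries, which may be technical. Ago2 and AGO1 transcripts are not part of a miRNA table, so the knockout and the induction could not be checked here.

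Animal genomes carry miR-99 or miR-100, a let-7 and a miR-125 in ancient clusters, which can be transcribed as a single precursor. miR-125 is the vertebrate relative of worm lin-4, which with let-7 sets the timing of development, and in stem cells the protein LIN28 blocks let-7 maturation and is itself a target of let-7 and miR-125. A mature miRNA finds its targets through the seed near its 5′ end while held by an Argonaute protein such as AGO1 or AGO2, of which AGO2 is known as the strong target slicer, and unloaded miRNAs are generally short-lived.

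The mature sequences show which members can share targets and which can be confused in counting. They are RefSeq sequences on GRCm38.p6, where all 7 members were matched, written 5′ to 3′ with the seed (bases 2 to 8) in capitals. The first set is the miR-125 seed, with miR-351-5p as the relative outside the group.
mmu-miR-125a-5p: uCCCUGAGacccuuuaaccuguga
mmu-miR-125b-5p: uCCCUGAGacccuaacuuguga
mmu-miR-351-5p: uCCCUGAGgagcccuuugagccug
The second set is the miR-99 seed, with both relatives outside the group.
mmu-miR-99b-5p: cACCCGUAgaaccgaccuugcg
mmu-miR-99a-5p: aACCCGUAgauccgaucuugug
mmu-miR-100-5p: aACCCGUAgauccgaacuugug
Among the members, each 3p arm has a seed of its own. Outside the group, miR-99a-3p, with 0 counts, has the seed of miR-99b-3p.
mmu-miR-99b-3p: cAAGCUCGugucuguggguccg
mmu-miR-125a-3p: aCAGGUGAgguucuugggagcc
mmu-miR-125b-1-3p: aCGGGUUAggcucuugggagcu
mmu-miR-125b-2-3p: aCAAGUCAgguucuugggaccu
The cluster neighbour let-7e-5p is shown because results below turn on it.
mmu-let-7e-5p: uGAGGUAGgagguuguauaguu
miR-125a-5p and miR-125b-5p were identical over their first 13 bases and differed by 3 edits in all. The miR-125 seed was carried by 3 further RefSeq miRNAs, miR-351-5p and the uncounted miR-6367 and miR-6394. let-7e-5p differs from let-7a-5p by 1 base and from let-7c-5p by 2, and how the authors' counting treated mismatches is not given in the sources used here, so reads may have been split among them.

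The hairpins of the group lie in 3 places of GRCm38, all on the + strand (GENCODE vM21). Mir99b (chr17:17830188-17830257), Mirlet7e (chr17:17830352-17830444) and Mir125a (chr17:17830812-17830879) fit within 692 bases inside Spaca6, where the first 2 are intronic and Mir125a overlaps an exon. Mir125b-1 (chr9:41581926-41582002) lies in introns of the noncoding genes 3110039I08Rik and Gm49317, 50501 bases after Mir100. It also overlaps an exon of Gm28119 on the same strand. Mir125b-2 (chr16:77646273-77646343) lies in an intron of Mir99ahg, 47337 bases after Mir99a, and overlaps an exon of C130023A14Rik on the same strand. miR-125b-5p can come from either of those hairpins, so its counts cannot be assigned to a locus, while each 3p arm marks a single hairpin. The hairpins of miR-125a and miR-125b-1 are shown with both mature arms in capitals, since their arms are compared below.
Mir125a: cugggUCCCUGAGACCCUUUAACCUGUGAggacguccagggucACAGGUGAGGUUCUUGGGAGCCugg
Mir125b-1: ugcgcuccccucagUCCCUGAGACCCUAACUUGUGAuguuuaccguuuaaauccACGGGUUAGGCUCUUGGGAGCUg

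Library totals were 1117435 to 1326638 counts in the induced line, 292895 to 736895 in the uninduced line, 163467 to 359099 in the knockout lines and 949620 to 1115712 in wild type. Levels are given as CPM, the count scaled to a common library total after edgeR's TMM scaling, and where a count is 0 the level may still reach that of 3 counts, 2.57 to 15.1 CPM depending on the library. A call is an edgeR adjusted p under 0.05 over the 475 tested miRNAs, and changes are log2 fold changes ± SE. These are relative levels in bulk RNA, where fewer cells with a miRNA and less miRNA per cell cannot be told apart. The 9 embryonic stem cell markers of the miR-290 and miR-302 clusters summed to 239561 to 254556 CPM in the induced line, 197918 to 203909 CPM in the uninduced line, 188840.1 to 218336 CPM in the knockout lines and 200015 to 247025 CPM in wild type. The 8 fibroblast markers summed to 6.98 to 7.36% of CPM in the induced line, 5.91 to 6.30% in the uninduced line, 4.20 to 4.27% in the knockout lines and 4.53 to 4.60% in wild type. Most of that sum was miR-22-3p, while miR-214-3p was at 0 in all 8 libraries. miR-143-3p did not follow it, averaging 3415 CPM in wild type, 1861 CPM induced, 271 CPM uninduced and 349 CPM in the knockout lines. The stem cell sum was mostly miR-295-3p. By group means, miR-302d-3p had 26.2 CPM in wild type and 78.6 to 222 CPM elsewhere. The knockout lines differed in it, with 227 CPM in line 1 and 40.2 CPM in line 2, beside 30.8 and 21.6 CPM in wild type A and B. miR-293-3p averaged 16525 CPM in wild type and 6967 to 11503 CPM elsewhere. Of the 5 blood markers, 4 had a count in the induced line and 3 in each other group, and their sum was 0.371 to 0.387% in the induced line, 0.621 to 0.672% in the uninduced line, 0.572 to 0.639% in the knockout lines and 0.183 to 0.188% in wild type. The 7 neural markers included miR-219a-5p, at 0 in all 8 libraries. They summed to 0.106 to 0.121% in the induced line and 0.0816 to 0.118% in the uninduced line. In the knockout lines the sum was 0.0916 to 0.0960% and in wild type 0.166 to 0.206%, so the sum was lower in every library without AGO2. Single markers differed: miR-9-5p had 479 CPM in uninduced B, beside 452 and 388 CPM in wild type A and B. miR-9-3p and miR-137-3p, at 0 to 2 counts a library, also reached higher CPM outside wild type. The 2 liver markers, with counts of miR-192-5p alone, summed to 0.175 to 0.179% in wild type and 0.226 to 0.250% elsewhere. The 4 muscle markers summed to at most 6.61 CPM in any library. The part of these markers in the members' changes was not tested.

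The members ranged from rare to abundant and fell into distinct patterns across the groups. The 7 together took 0.824 and 0.714% of counts in induced A and B, 0.954 and 0.781% in uninduced A and B, 0.572 and 0.736% in knockouts 1 and 2, and 0.522 and 0.574% in wild type A and B. miR-125a-5p and miR-99b-5p held most of this.

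miR-125a-5p, the most counted member and a lin-4 relative, had 6264 and 4988 CPM in induced A and B, 7710 and 5995 CPM in uninduced A and B, 4236 and 4905 CPM in knockouts 1 and 2, and 2673 and 2525 CPM in wild type A and B. Every library without AGO2 lay above both wild type libraries, and the induced and uninduced libraries overlapped. In order of group means, the uninduced line had 6853 ± 1213 CPM, the induced line 5626 ± 903 CPM, the knockout lines 4570 ± 473 CPM and wild type 2599 ± 105 CPM (SD, n = 2 each). The uninduced and induced lines overlapped and were not separated by the test given below, whereas the lowest induced library, at 4988 CPM, lay just above the highest knockout library, at 4905 CPM.

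miR-99b-5p, encoded 624 bases upstream in the same cluster, had 2658 and 2585 CPM in induced A and B, 1162 and 1061 CPM in uninduced A and B, 669 and 820.0 CPM in knockouts 1 and 2, and 3005 and 3029 CPM in wild type A and B. Here the knockout lines were the lowest group and wild type the highest, and no groups overlapped. From low to high, the group means were 744 ± 107 CPM in the knockout lines, 1112 ± 71.2 CPM in the uninduced line, 2622 ± 51.9 CPM in the induced line and 3017 ± 16.4 CPM in wild type (SD, n = 2 each). In the tests given below, the induced line and wild type were neighbours in this order that did not pass, and so were the uninduced and knockout lines.

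miR-99b-3p, the less abundant arm of that hairpin, had 131 and 112 CPM in induced A and B, 55.9 and 62.8 CPM in uninduced A and B, 24.9 and 50.3 CPM in knockouts 1 and 2 (10 counts each), and 103 and 109.7 CPM in wild type A and B. The induced and wild type libraries lay above all uninduced and knockout libraries, as for its 5p arm.

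miR-125a-3p had 127 and 104 CPM in induced A and B, 199.7 and 205 CPM in uninduced A and B, 79.8 and 101 CPM in knockouts 1 and 2, and 51.0 and 55.8 CPM in wild type A and B. Both uninduced libraries were the highest and both wild type libraries the lowest.

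miR-125b-5p, with the same seed as miR-125a-5p, had 92.4 and 77.7 CPM in induced A and B, 109 and 89.3 CPM in uninduced A and B, 59.9 and 90.5 CPM in knockouts 1 and 2, and 23.7 and 27.9 CPM in wild type A and B. The groups without AGO2 overlapped one another and all lay above wild type. miR-125b-1-3p, which marks the chromosome 9 hairpin, had 74.4 and 81.7 CPM in induced A and B, 119.8 and 145 CPM in uninduced A and B, 34.9 and 65.4 CPM in knockouts 1 and 2, and 24.9 and 9.89 CPM in wild type A and B. Its order was uninduced, induced, knockout and wild type with no overlap between groups, although wild type A and B rested on 21 and 11 counts.

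miR-125b-2-3p, which marks the chromosome 16 hairpin, was the rarest member, with 10 and 7 counts in induced A and B, 3 and 2 in uninduced A and B, 7 and 4 in knockouts 1 and 2, and 2 and 5 in wild type A and B. These counts correspond to 8.55 and 6.98 CPM in the induced line, 3.99 and 6.61 CPM in the uninduced line, 17.5 and 20.1 CPM in the knockout lines, and 2.37 and 4.50 CPM in wild type. The knockout lines were highest in CPM, on 11 counts in all.

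**Figure D1:**
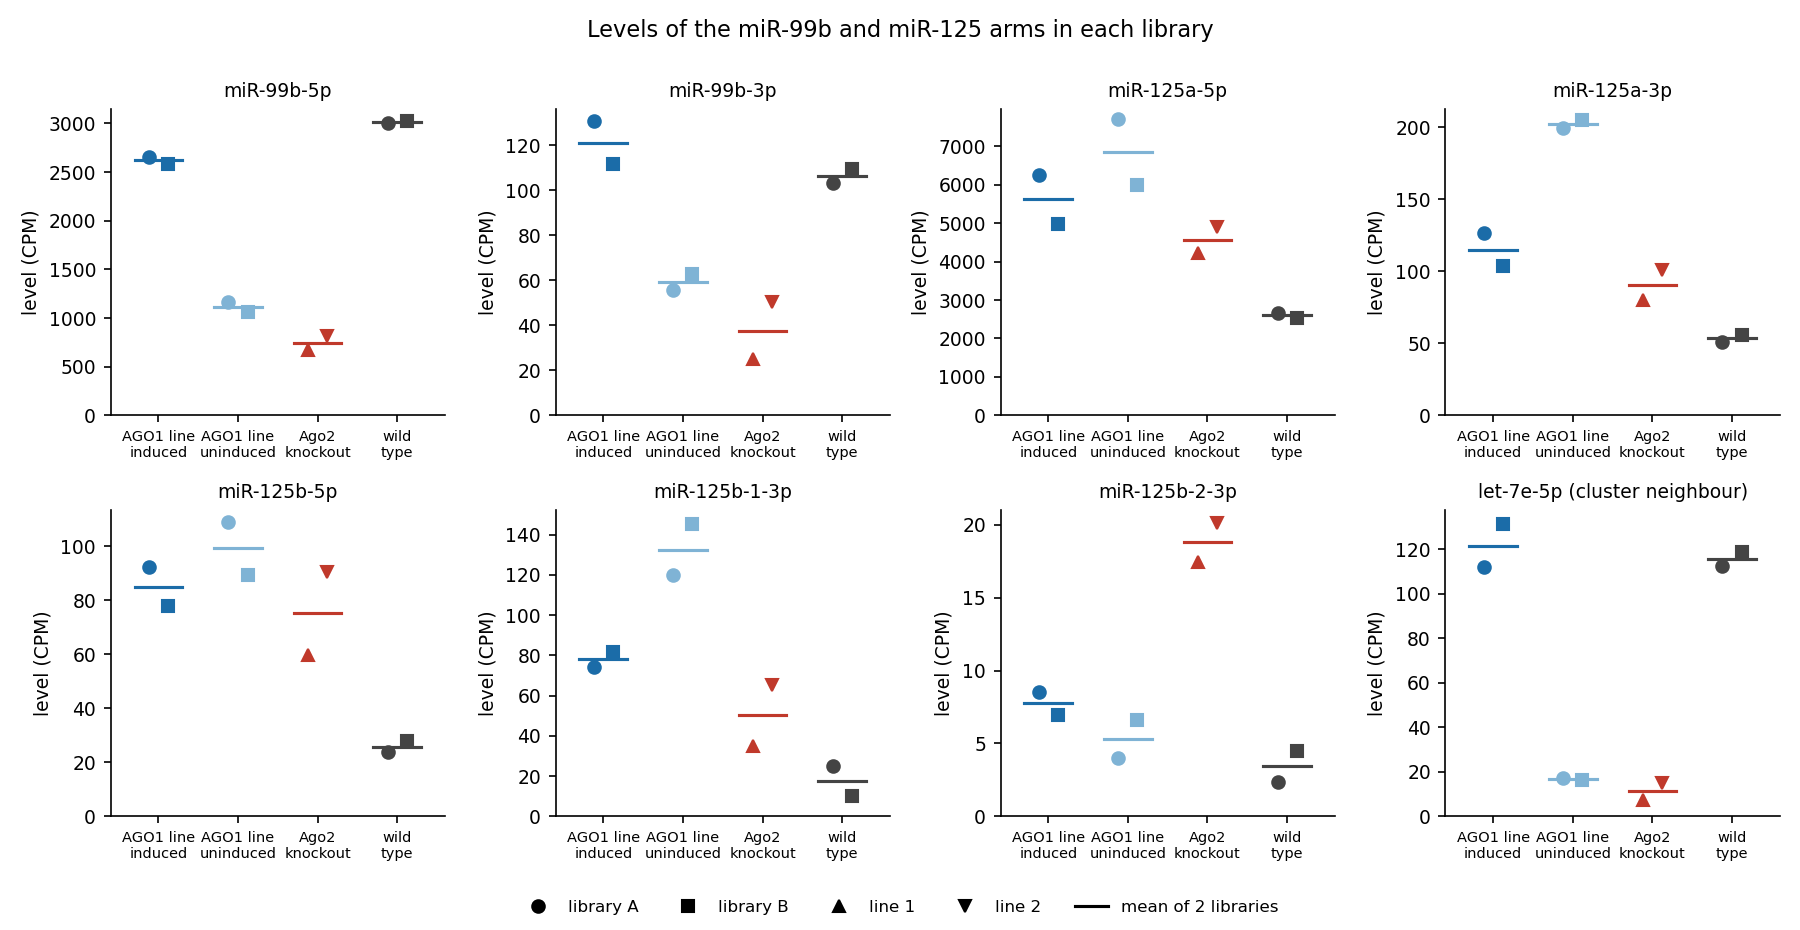
Level in CPM (vertical axis) of the 7 members and of the cluster neighbour let-7e-5p in the induced AGO1 line, the uninduced AGO1 line, the Ago2 knockout lines and wild type, with 1 point per library and a line at the mean of the 2. miR-99b-5p and let-7e-5p are high in the induced line and wild type (2658 and 2585 CPM, and 3005 and 3029 CPM for miR-99b-5p), while miR-125a-5p is lowest in wild type (2673 and 2525 CPM).

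The comparison of the knockout lines with wild type asks what the loss of AGO2 goes with. The group split: 4 members rose, all from miR-125 hairpins, and both arms of miR-99b fell. miR-125a-5p averaged 4570 ± 473 CPM in the knockout lines and 2599 ± 105 CPM in wild type (SD, n = 2 each), a change of 0.81 ± 0.20 (edgeR adjusted p = 0.00594). miR-99b-5p averaged 744 ± 107 CPM in the knockout lines and 3017 ± 16.4 CPM in wild type, a change of -2.02 ± 0.19 (edgeR adjusted p = 1.70e-05) and the largest fall of the 7. The background was broad, since 25.5% of the 475 tested miRNAs were called higher and 32.2% lower, and all 7 members had groups without overlap, as had 367 of the 475. The median change was 0.81 over the members and -0.12 over all tested miRNAs.

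Of the other members, miR-125b-5p averaged 75.2 ± 21.7 CPM in the knockout lines and 25.8 ± 2.94 CPM in wild type, a change of 1.48 ± 0.36 (edgeR adjusted p = 0.00657). The hairpin-specific arms also rose, miR-125b-1-3p by 1.47 ± 0.52 (edgeR adjusted p = 0.0328) and miR-125b-2-3p by 2.32 ± 0.67 (edgeR adjusted p = 0.0152). miR-99b-3p averaged 37.6 ± 17.9 CPM in the knockout lines and 106 ± 4.60 CPM in wild type, a change of -1.61 ± 0.38 (edgeR adjusted p = 0.00545). miR-125a-3p had a change of 0.73 ± 0.31 and did not pass (edgeR adjusted p = 0.0645). It passed with DESeq2 size factors (adjusted p = 0.0469) and with library totals alone (adjusted p = 0.0184).

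The calls of the low members depended on single libraries. miR-125b-1-3p was no longer called without wild type B (0.91, adjusted p = 0.158) or knockout line 2 (1.09, adjusted p = 0.0878), with only the 2 groups in the edgeR fit (adjusted p = 0.0661), or without the 2 shallowest libraries (adjusted p = 0.0614). miR-125b-2-3p was lost without wild type A (adjusted p = 0.0562), knockout line 1 (adjusted p = 0.0883) or knockout line 2 (adjusted p = 0.0550), and under the DESeq2 Wald test (adjusted p = 0.0825). miR-99b-3p was lost without knockout line 1 (-1.07, edgeR adjusted p = 0.0710) and with only the 2 groups in the fit (adjusted p = 0.0574). miR-99b-5p, miR-125a-5p and miR-125b-5p kept their calls under every alternative tried.

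The uninduced AGO1 line against the knockout lines compares 2 states that both lack AGO2 and received no doxycycline. They differ in the transgene, in puromycin, given for the AGO1 line alone, and in origin, since that line derives from knockout line 1. These differences cannot be told apart. No member and none of the 475 miRNAs was called by edgeR, a background of 0% higher and 0% lower. At an unadjusted p under 0.05 there were 72 miRNAs, 5 of them members, and the DESeq2 Wald test called 15. The changes of the members ran from -1.90 for miR-125b-2-3p to 1.48 for miR-125b-1-3p, and miR-99b-5p had 0.58 ± 0.18 (edgeR adjusted p = 0.206), miR-125a-5p had 0.59 ± 0.19 (edgeR adjusted p = 0.216) and miR-125a-3p had 1.19 ± 0.30 (edgeR adjusted p = 0.169). Groups did not overlap for 6 of the 7 members, as for 212 of all 475. This result rested on the knockout libraries. Without knockout line 2, 33 miRNAs were called, including miR-125a-3p (adjusted p = 0.0205) and miR-125b-1-3p (adjusted p = 0.00411), and without knockout line 1, 61 were called but no member. miR-125a-3p was also called by the DESeq2 Wald test (adjusted p = 0.0494), miR-125b-1-3p with no abundance filter (edgeR adjusted p = 0.0455), and miR-125b-1-3p and miR-125a-5p without the 2 shallowest libraries, knockout 2 and uninduced B (edgeR adjusted p = 0.0352 and 0.00884).

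Doxycycline induction of AGO1 was compared within the 1 line. No library had doxycycline without the transgene, so AGO1 and doxycycline itself cannot be told apart. miR-99b-5p averaged 2622 ± 51.9 CPM with induction and 1112 ± 71.2 CPM without (SD, n = 2 each), and rose by 1.24 ± 0.18 (edgeR adjusted p = 0.000728). miR-99b-3p rose with it, by 1.04 ± 0.33 (edgeR adjusted p = 0.0359). miR-125a-3p averaged 115 ± 16.2 CPM with induction and 202 ± 3.77 CPM without, a change of -0.81 ± 0.27 (edgeR adjusted p = 0.0463). The other 4 members were not called, with miR-125a-5p at -0.28 ± 0.19 (edgeR adjusted p = 0.294), miR-125b-5p at -0.24 ± 0.30 (edgeR adjusted p = 0.589), miR-125b-1-3p at -0.75 ± 0.38 (edgeR adjusted p = 0.167) and miR-125b-2-3p at 0.68 ± 0.69 (edgeR adjusted p = 0.484). Among all 475 tested miRNAs, 21.1% were called higher and 7.79% lower. The median change was -0.24 over the members and 0.03 over all tested. Without TMM factors the split of calls was 83 higher and 64 lower, beside 100 higher and 37 lower with them.

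The miR-99b-5p call held under every alternative. Leaving out induced A, induced B, uninduced A or uninduced B each ended the calls of miR-99b-3p (edgeR adjusted p = 0.189, 0.122, 0.172 and 0.168) and of miR-125a-3p (edgeR adjusted p = 0.194, 0.344, 0.294 and 0.116), and took the count over all miRNAs to 78, 69, 57 and 75, against 137 with all libraries. The miR-125a-3p call also ended without wild type A (adjusted p = 0.0736) or wild type B (adjusted p = 0.0680), which enter this comparison only through the shared filter, scaling and spread. Among the other settings, the DESeq2 Wald test ended both calls (adjusted p = 0.110 for miR-99b-3p and 0.0546 for miR-125a-3p). The miR-99b-3p call also ended with DESeq2 size factors (adjusted p = 0.0516) and with library totals alone (adjusted p = 0.0801), and the miR-125a-3p call with no abundance filter (adjusted p = 0.177) and without the 2 shallowest libraries (adjusted p = 0.0606). miR-125b-1-3p became a call without knockout line 1 (adjusted p = 0.0482) or line 2 (adjusted p = 0.0473), or with only the 2 groups in the edgeR fit (adjusted p = 0.0109). Without uninduced A the changes of miR-125a-5p and miR-125b-5p turned to 0.042 and 0.063, neither called.

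The induced line against wild type sets cells that lack AGO2 and were induced for transgenic AGO1 beside the parental line. The 2 groups also differ in doxycycline and puromycin, which cannot be told apart from AGO2 loss or AGO1 here. Of the miR-125 members, 4 were higher in the induced line, and neither arm of miR-99b was called. miR-125a-5p averaged 5626 ± 903 CPM in the induced line and 2599 ± 105 CPM in wild type, 1.11 ± 0.20 higher (edgeR adjusted p = 0.00217). miR-125a-3p was 1.10 ± 0.28 higher (edgeR adjusted p = 0.0122), miR-125b-5p 1.71 ± 0.32 higher (edgeR adjusted p = 0.00288) and miR-125b-1-3p 2.20 ± 0.43 higher (edgeR adjusted p = 0.00360). These were 4 of 7 members called higher and 0 lower, with 19.2% higher and 19.8% lower among the 475. miR-99b-5p had a change of -0.20 ± 0.18 (edgeR adjusted p = 0.379) and miR-99b-3p of 0.19 ± 0.30 (edgeR adjusted p = 0.653), and miR-125b-2-3p did not pass at 1.10 ± 0.62 (edgeR adjusted p = 0.173). The miR-125a-3p call ended without induced A (adjusted p = 0.0767) or wild type B (adjusted p = 0.0544). Leaving out induced A, induced B, wild type A or wild type B took the count over all miRNAs to 105, 75, 102 and 105, against 185. The median change was 1.10 over the members and 0.01 over all tested. The 4 comparisons share libraries with one another, so their values are set side by side and are not independent.

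The hairpin order within the chromosome 17 cluster is miR-99b, let-7e and miR-125a. let-7e-5p, a let-7 family member, had 131 and 132 counts in induced A and B, 13 and 5 in uninduced A and B, 3 in each knockout line, and 95 and 132 in wild type A and B. Its level was 112 and 132 CPM in the induced line, 17.3 and 16.5 CPM in the uninduced line, 7.48 and 15.1 CPM in the knockout lines, and 113 and 119 CPM in wild type. Like miR-99b-5p, and unlike miR-125a-5p, it was higher in every induced and wild type library than in any uninduced or knockout library. let-7e-5p rose by 2.82 ± 0.35 with induction (edgeR adjusted p = 0.000272), against 1.24 ± 0.18 for miR-99b-5p and -0.28 ± 0.19 for miR-125a-5p. In the knockout lines against wild type, let-7e-5p changed by -3.49 ± 0.44 (edgeR adjusted p = 0.000123), beside -2.02 ± 0.19 for miR-99b-5p and 0.81 ± 0.20 for miR-125a-5p.

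**Figure D2:**
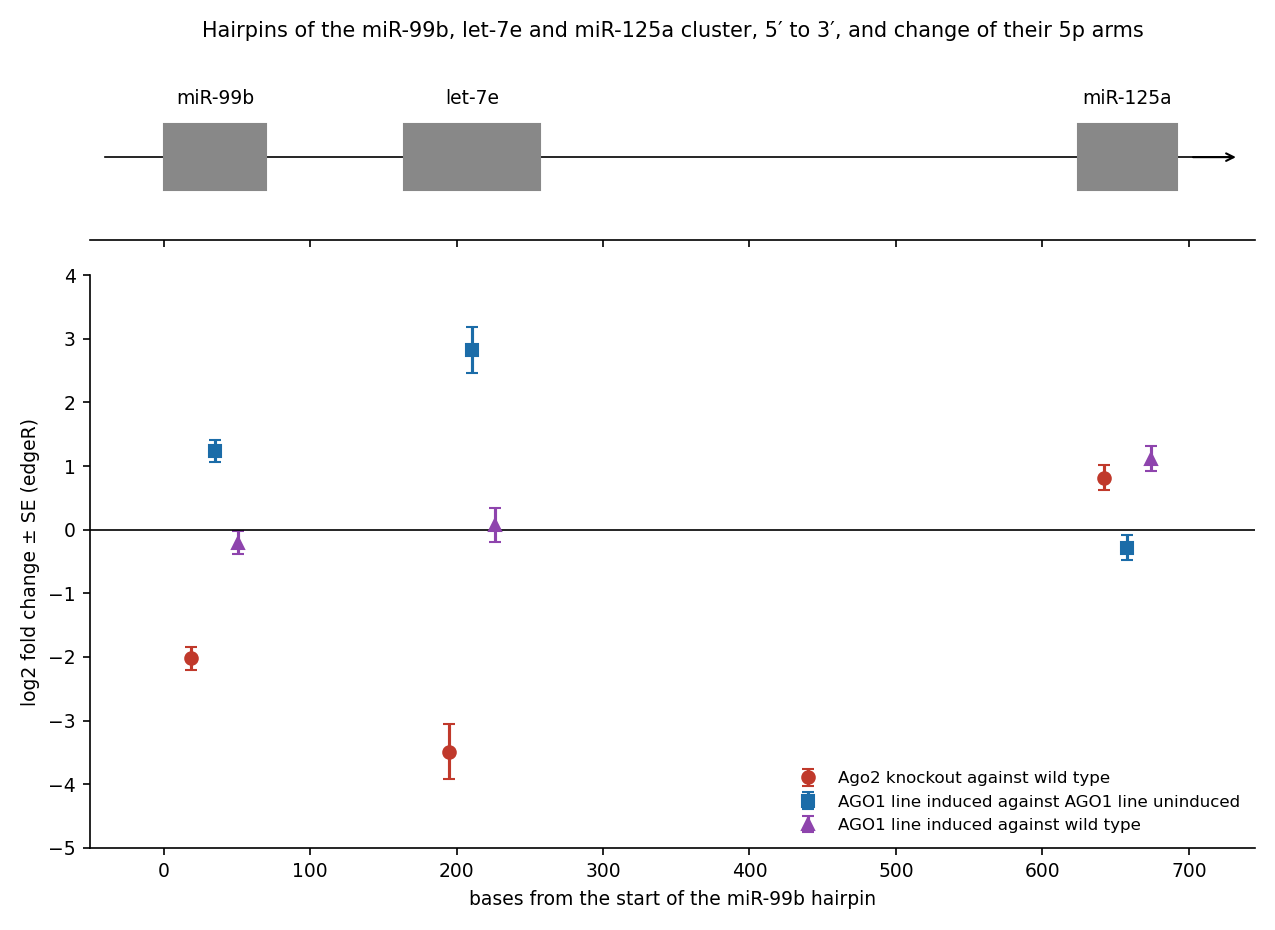
Top, the hairpins of the chromosome 17 cluster drawn to scale in bases from the start of the miR-99b hairpin. Bottom, the edgeR log2 fold change ± SE of each hairpin's 5p arm against that position, where the knockout against wild type gave -2.02 for miR-99b-5p, -3.49 for let-7e-5p and 0.81 for miR-125a-5p.

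The ratio of counts within a library needs no scaling between libraries. miR-99b-5p over miR-125a-5p was 0.424 and 0.518 in induced A and B, 0.151 and 0.177 in uninduced A and B, 0.158 and 0.167 in knockouts 1 and 2, and 1.12 and 1.20 in wild type A and B. The uninduced and knockout libraries overlapped, the induced libraries were intermediate, and only in wild type did miR-99b-5p exceed miR-125a-5p. With 2 libraries against 2, an exact permutation test cannot go below p = 0.333. The ratio was therefore tested in edgeR across 221 pairs of miRNAs from different hairpins within 1000 bases on 1 strand, a test chosen after the data were seen, in which pairs share miRNAs.

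For the knockout lines against wild type, miR-99b-5p over miR-125a-5p changed by -2.84 ± 0.22 (edgeR adjusted p = 1.82e-08). Such shifts were common, since 71% of the 221 neighbour pairs were called and their median size was 1.77, and this pair ranked 62 by size. With induction the ratio changed by 1.53 ± 0.21 (edgeR adjusted p = 3.24e-05, 52.9% of pairs called, rank 80 of 221). In the induced line against wild type it changed by -1.31 ± 0.21 (edgeR adjusted p = 7.04e-05, 57% of pairs called, rank 79). In the uninduced line against the knockout lines the change was 0.01 ± 0.22, with 0.452% of pairs called.

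let-7e-5p over miR-125a-5p was called in the same 3 comparisons. It changed by -4.29 ± 0.43 in the knockout lines against wild type (edgeR adjusted p = 4.06e-07, rank 35 of 221) and by 3.17 ± 0.35 with induction (edgeR adjusted p = 2.29e-06, rank 10). In the induced line against wild type it changed by -1.04 ± 0.25 (edgeR adjusted p = 0.00193, rank 102, beside a median size of 0.96). In the uninduced line against the knockout lines it changed by 0.07 ± 0.60 (edgeR adjusted p = 0.981). The neighbours miR-99b-5p and let-7e-5p also shifted against each other, by 1.44 ± 0.48 in the knockout lines against wild type (edgeR adjusted p = 0.0134) and by -1.61 ± 0.34 with induction (edgeR adjusted p = 0.00100), and by -0.27 ± 0.23 in the induced line against wild type (edgeR adjusted p = 0.324). In these 3 comparisons the pair ranked 135, 74 and 187 of 221. Its change in the knockout lines against wild type was below the median size of 1.77, where 71% of pairs were called. In the knockout lines, let-7e-5p rests on 6 counts in all.

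**Figure D3:**
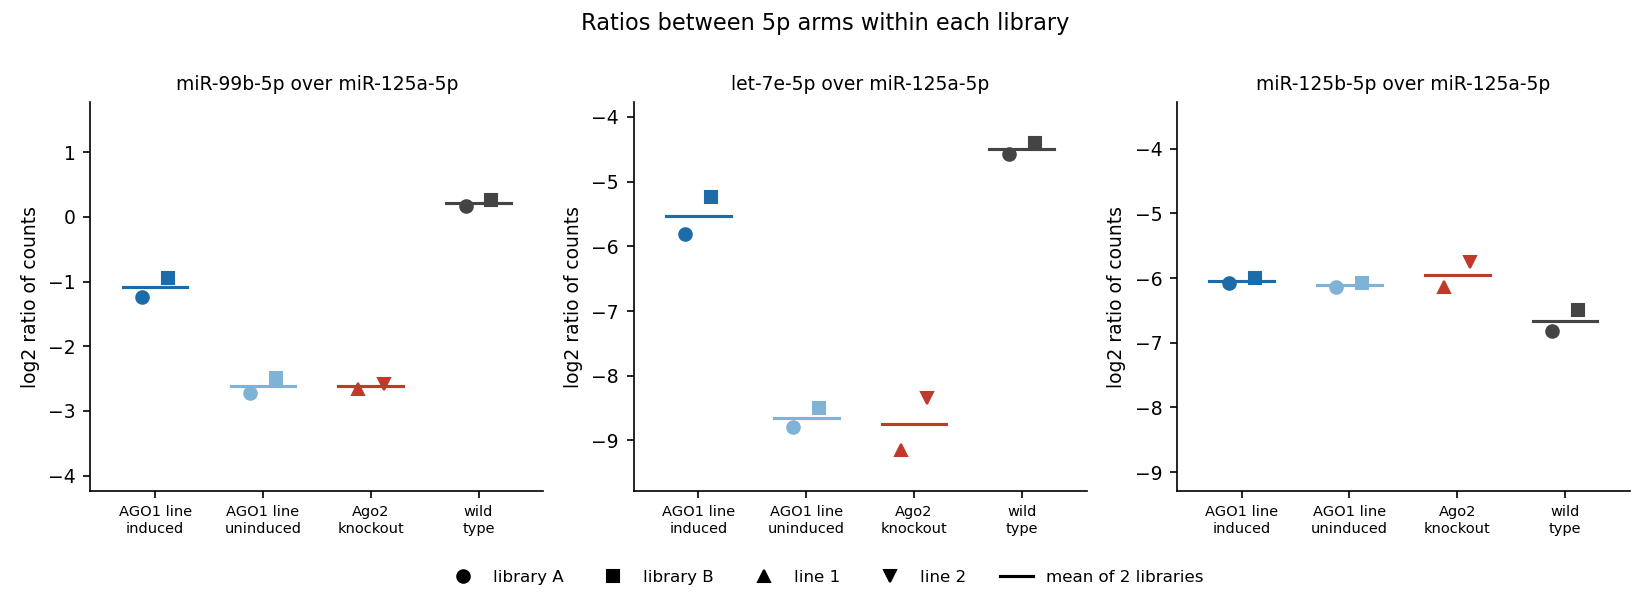
Log2 ratio of counts within each library (vertical axis) for pairs of 5p arms in the induced line, the uninduced line, the knockout lines and wild type, with 1 point per library and a line at the mean. The linear ratio of miR-99b-5p to miR-125a-5p is 0.424 and 0.518 in the induced line, between 0.151 and 0.177 in the uninduced and knockout libraries, and 1.12 and 1.20 in wild type.

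**Figure D4:**
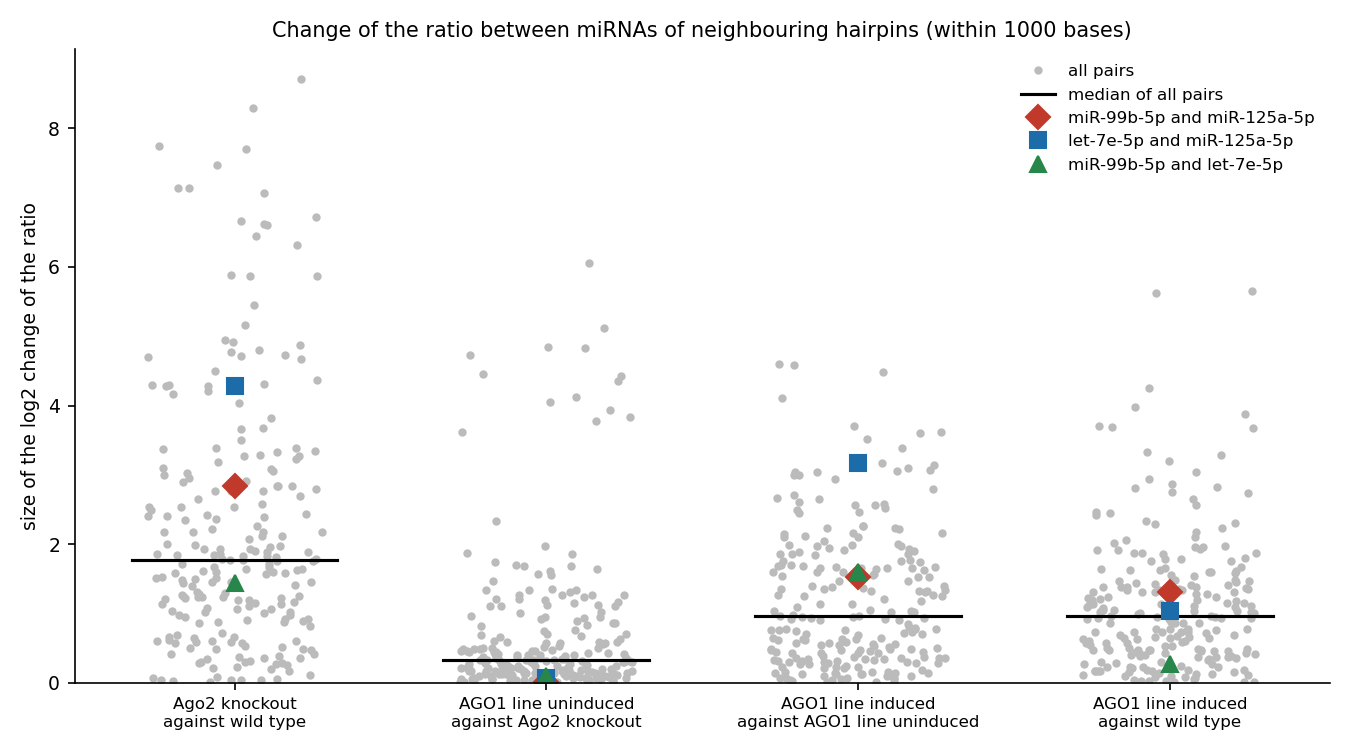
Size of the log2 change of the ratio between neighbouring miRNAs (vertical axis) in each comparison, with 221 pairs as grey points, their median as a line and the chromosome 17 pairs marked. In the knockout lines against wild type the median size is 1.77, and the pair of miR-99b-5p and miR-125a-5p stands at 2.84.

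miR-125b-5p tracked miR-125a-5p, with which it shares the first 13 bases but no locus. The handling of mismatches is not given, and whether some miR-125a-5p reads were counted as miR-125b-5p was not tested. Per 100 counts of miR-125a-5p there were 1.47 and 1.56 counts of miR-125b-5p in induced A and B, 1.42 and 1.49 in uninduced A and B, 1.41 and 1.85 in knockouts 1 and 2, and 0.888 and 1.10 in wild type A and B. Both wild type libraries were below all others, and the groups without AGO2 overlapped. Over the 8 libraries the log2 CPM of miR-125b-5p correlated with that of miR-125a-5p at Pearson r = 0.965, a description of points that share libraries, scaling and groups.

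The 2 arms of a hairpin come from 1 precursor, so their ratio shows whether arms moved apart. Counts of miR-99b-3p per 100 counts of miR-99b-5p were 4.92 and 4.32 in induced A and B, 4.81 and 5.92 in uninduced A and B, 3.73 and 6.13 in knockouts 1 and 2, and 3.43 and 3.62 in wild type A and B. miR-125a-3p stood at 2.02 and 2.08 per 100 counts of miR-125a-5p in induced A and B, 2.59 and 3.42 in uninduced A and B, 1.88 and 2.05 in knockouts 1 and 2, and 1.91 and 2.21 in wild type A and B. For miR-99b, wild type was lowest and the other groups overlapped. For miR-125a, the uninduced libraries were above all others.

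Neither hairpin's arm ratio was called in any comparison by edgeR over 135 hairpins, nor by the DESeq2 Wald test, whose adjusted p for them ran from 0.397 to 0.982. At an unadjusted p under 0.05, the miR-125a ratio passed in the uninduced line against the knockout lines and with induction. In the knockout lines against wild type, where 40.7% of hairpins were called, the 3p over 5p change was 0.42 ± 0.34 for miR-99b (edgeR adjusted p = 0.370) and -0.08 ± 0.29 for miR-125a (edgeR adjusted p = 0.829). In the uninduced line against the knockout lines, with 0.741% of hairpins called, it was 0.15 ± 0.35 for miR-99b (edgeR adjusted p = 0.966) and 0.58 ± 0.27 for miR-125a (edgeR adjusted p = 0.579). With induction, where 5.19% of hairpins were called, it was -0.18 ± 0.27 for miR-99b (edgeR adjusted p = 0.690) and -0.52 ± 0.23 for miR-125a (edgeR adjusted p = 0.200). In the induced line against wild type, where 45.9% were called, it was 0.39 ± 0.23 for miR-99b (edgeR adjusted p = 0.194) and -0.01 ± 0.30 for miR-125a (edgeR adjusted p = 0.982).

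miR-125b-1-3p was closer in count to its 5p arm. Per 100 counts of miR-125b-5p, miR-125b-1-3p had 80.6 and 105 counts in induced A and B, 110 and 163 in uninduced A and B, 58.3 and 72.2 in knockouts 1 and 2, and 105 and 35.5 in wild type A and B. Wild type A and B spanned the values of both knockout lines. miR-125b-2-3p had 9.26 and 8.97 per 100 in the induced line, 3.66 and 7.41 in the uninduced line, 29.2 and 22.2 in the knockout lines, and 10 and 16.1 in wild type. These ratios were not tested, because the 5p counts pool both hairpins.

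**Figure D5:**
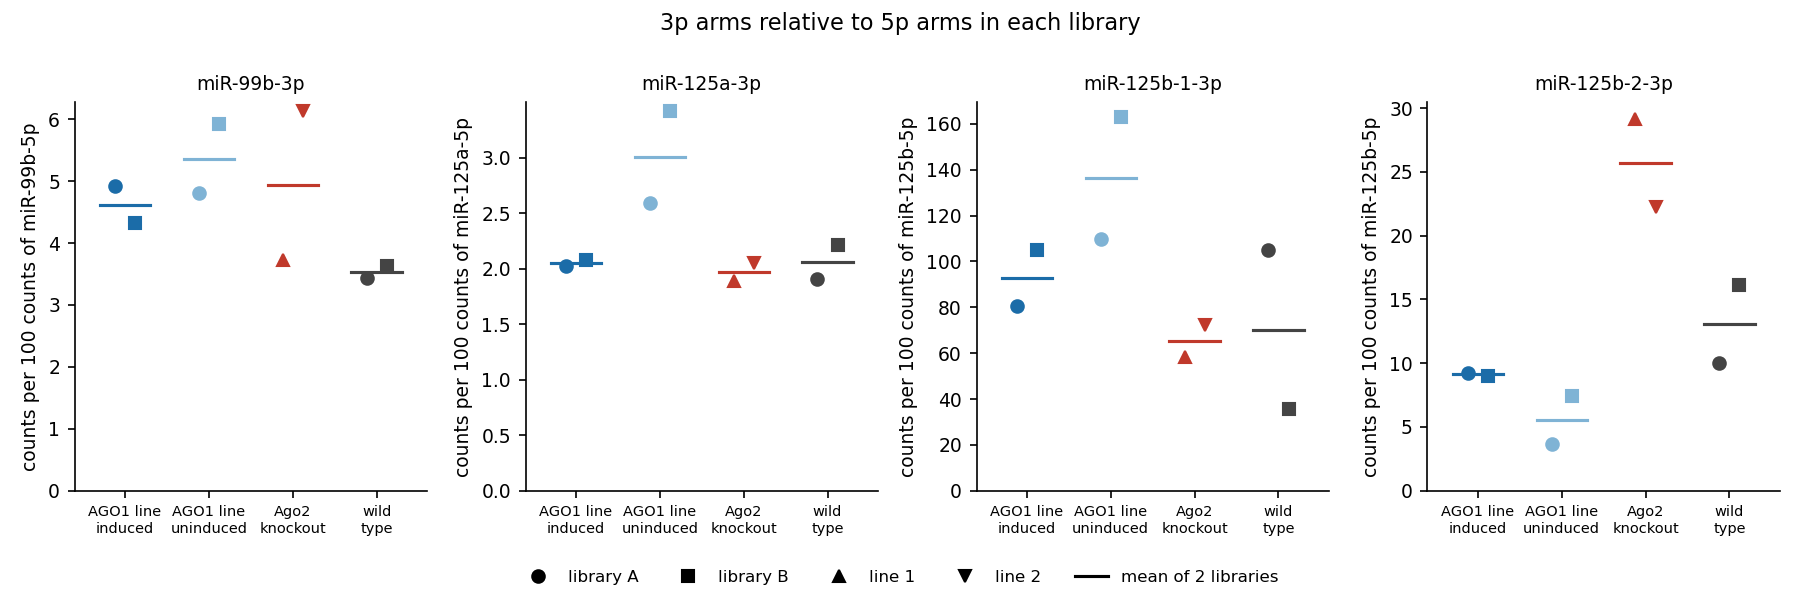
Counts of each 3p arm per 100 counts of its 5p arm (vertical axis) in the induced line, the uninduced line, the knockout lines and wild type, with 1 point per library and a line at the mean. miR-99b-3p runs from 3.43 to 6.13 and miR-125a-3p from 1.88 to 3.42, while miR-125b-1-3p reaches 163.

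The cluster partners of the group, listed by name, were 12 let-7, miR-99 and miR-100 arms, of which 3 were abundant enough to test. The list includes arms of 2 let-7 hairpins outside these clusters, let-7a-1 on chromosome 13 and let-7c-2 on chromosome 15. let-7a-5p and let-7c-5p can come from hairpins inside or outside the clusters, so their changes cannot be assigned to a cluster. In the knockout lines against wild type, let-7e-5p and let-7a-5p fell and let-7c-5p did not pass. With induction let-7e-5p and let-7a-5p rose, let-7a-5p by 1.49 ± 0.31 (edgeR adjusted p = 0.00582), and let-7c-5p had 0.43 ± 0.30 (edgeR adjusted p = 0.306). let-7a-5p, a let-7 made from several hairpins, averaged 46.4 ± 5.58 CPM in the knockout lines and 211 ± 48.4 CPM in wild type, a change of -2.21 ± 0.33 (edgeR adjusted p = 0.000427). let-7c-5p averaged 98.9 ± 26.0 CPM in the knockout lines and 99.9 ± 8.77 CPM in wild type, a change of 0.02 ± 0.33 (edgeR adjusted p = 0.967). In the induced line against wild type let-7c-5p was 1.30 ± 0.30 higher (edgeR adjusted p = 0.00769), let-7e-5p had 0.07 ± 0.27 (edgeR adjusted p = 0.847) and let-7a-5p had -0.59 ± 0.27 (edgeR adjusted p = 0.111).

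The miR-99 and miR-100 copies that lie with miR-125b were nearly absent. miR-99a-5p had 1 count and miR-100-5p 10 counts over the 8 libraries together, and miR-99a-3p, miR-100-3p, let-7c-1-3p and let-7a-2-3p had 0. Outside these clusters, let-7c-2-3p and let-7a-1-3p, which are identical in sequence, had 16 and 17 counts. let-7e-3p had 4 and 10 counts in induced A and B, 1 in each uninduced library, 0 in each knockout line, and 8 and 2 in wild type A and B. The group's miR-99 seed was thus carried almost wholly by miR-99b-5p in these counts.

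miR-351-5p, an X-linked relative with the miR-125 seed, was the single other counted carrier of it. It had 1470 and 1206 CPM in induced A and B, 411 and 304 CPM in uninduced A and B, 434 and 282 CPM in knockouts 1 and 2, and 701 and 458 CPM in wild type A and B. It was highest in both induced libraries. It rose by 1.89 ± 0.29 with induction (edgeR adjusted p = 0.000952), was 1.21 ± 0.28 higher in the induced line than in wild type (edgeR adjusted p = 0.00815), and had -0.68 ± 0.29 in the knockout lines against wild type (edgeR adjusted p = 0.0685). miR-125a-5p and miR-125b-5p were not called with induction, and the difference between their changes and that of miR-351-5p was not tested.

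By Pearson correlation of log2 CPM over the 8 libraries, among 379 miRNAs outside the group with a mean of at least 20 CPM, the pattern most like miR-99b-5p was that of let-7e-5p (r = 0.985), then miR-431-5p (0.979) and miR-300-3p (0.971). miR-431-5p had 4870 and 5801 CPM in induced A and B, 535 and 622 CPM in uninduced A and B, 422 and 372 CPM in knockouts 1 and 2, and 7415 and 6204 CPM in wild type A and B. As for miR-99b-5p, its induced and wild type libraries lay above the rest. Outside the group, the nearest to miR-125a-5p were miR-92b-3p (0.955), miR-411-5p (0.949) and miR-30c-1-3p (0.947), and for miR-125b-5p they were miR-22-5p (0.957), miR-192-5p (0.952) and miR-30d-3p (0.950). miR-92b-3p had 28694 and 28201 CPM in induced A and B, 34549 and 38946 CPM in uninduced A and B, 22343 and 22723 CPM in knockouts 1 and 2, and 9503 and 7643 CPM in wild type A and B. All of these correlations describe 8 points in 4 groups that share libraries and scaling.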

How the data were processed

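Small RNA counts of 8 libraries in 4 groups of 2 were used. The deposited values are raw counts of reads for each mature miRNA, not normalized by the authors, as the whole numbers show. Bowtie and mm10 are named in the submitters' processing notes, with no version, and a TruSeq small RNA kit was used on 1 µg of total RNA, per the labels' protocols. The handling of mismatches and of multiple matches is not stated in the labels. Totals ranged from 163467 to 1326638 counts, and 901 of 1915 miRNAs had no count.

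CPM values were computed from library totals times TMM factors (0.881 to 1.22). Tests used edgeR 4.0.16 (limma 3.58.1, R 4.3.3): filterByExpr, 1 fit of 4 groups with 4 residual degrees of freedom, the 2-sided quasi-likelihood F test and Benjamini-Hochberg adjustment over 475 miRNAs per comparison. These hold 99.9% of counts. Each SE is approximate, the size of the log2 fold change over the square root of F. Ratios of arms and neighbours were fitted with each library as a term. The floors cover counting error alone, because reads carry no molecular identifiers and are not independent molecules. Libraries of a group differed by more than sampling noise (chi-square per degree of freedom 13.8 to 44.3), and none was merged. The steps were run on simulated counts with the means and spreads of these data and changes planted in the knockout group alone. The outcome is not reported here.

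Alternatives were DESeq2 1.42.0 size factors, its Wald test, no TMM factors, 2 other abundance filters, only the groups compared and each library left out. Others were the letters as a replicate block, fitted without the knockout libraries, and, added after seeing the data, no 2 shallowest libraries. Named miRNAs are the members, their cluster partners, their seed relatives and the 3 most correlated miRNAs of 3 members. Members and lists were chosen with earlier results of these data known.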

Additional observations from a re-analysis of the deposited data

How the results depend on the processing

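Depth limits the low members: miR-125b-2-3p has 2 to 10 counts a library and let-7e-5p has 3 in each knockout line. Across the members' log2 fold changes, 379 values under an alternative kept their direction and side of the threshold, 28 lost a call, 11 gained one and 2 changed sign. The median log2 fold change of all tested miRNAs in the knockout lines against wild type was -0.12 with TMM, -0.07 with DESeq2 factors and 0.16 with library totals alone, where 155 were called higher and 111 lower, beside 121 and 153 with TMM. In the induced line against wild type, library totals gave 74 higher and 107 lower, beside 91 and 94. The directions of called members held under each scaling. The cause of each change below was not tested.

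In the uninduced line against the knockout lines, the DESeq2 Wald test called 15 miRNAs (1 member), no filter 14 (1 member), library totals 2, and the fit without the 2 shallowest libraries 25 (2 members), which also gave miR-99b-5p over miR-125a-5p as -0.067. With 1 library left out, calls there ran from 0 to 61 (members 0 to 2), miR-99b-5p over miR-125a-5p from -0.11 to 0.13, let-7e-5p over miR-125a-5p from -0.37 to 0.42 and the miR-99b arm ratio from -0.24 to 0.48. With induction, the DESeq2 Wald test called 1 member, and leave-one-out fits called 57 to 200 miRNAs and 1 to 4 members, with miR-125a-5p from -0.61 to 0.042 and miR-125b-5p from -0.51 to 0.063. In the induced line against wild type, they called 75 to 258 miRNAs, and the miR-125a arm ratio ran from -0.11 to 0.10. That ratio ran from -0.18 to 0.032 in the knockout lines against wild type.

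The labels do not say what the letters A and B mark, so the libraries were treated as unpaired. Correlations of deviations between same-letter libraries were 0.24 for the induced with the uninduced line and -0.01 for the induced line with wild type. For the uninduced line with wild type the value was 0.08. The fit with a replicate block also left out the knockout libraries, which carry no letters. With induction it called 192 miRNAs and 3 members, beside 137 miRNAs in the main fit. For the induced line against wild type it called 250 miRNAs and 4 members, beside 185 miRNAs in the main fit. In these counts the block and the missing knockout libraries cannot be told apart. No member's call changed. Mean CPM of members moved by more than 1 SD with library totals alone in 10 of 28 cases.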
